A study of Mus musculus with 9 samples.

Results

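Sorted epidermal keratinocytes of the Mi2 group were compared with those of the WT group over every row of the epidermal table whose mean across the 4 libraries was at least 10 normalized reads. This rule kept 14461 of 36442 rows, and 21981 rows lay below it. The lowest mean inside was 10.004 and the highest outside was 9.995, and the kept rows carried 99.8% of all normalized reads. The rule used only the overall level and not the difference between the groups.

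Both groups came from the epidermis of adult mouse skin and were isolated by cell sorting directly from tissue, with 2 libraries each, out of 9 RNA sequencing samples in the series. The Mi2 group is named for Mi-2β, which the gene Chd4 encodes, and the table's column names mark it as a knock-out. The labels state no strain, sex, age beyond adult, hour of collection or deleter line, and no promoter that would drive one. They also do not say whether the replicates were different mice, so p-values measure the spread between these libraries, which may be technical.

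Mi-2β is the motor subunit of the NuRD complex, which moves nucleosomes and carries histone deacetylases. The epidermis renews itself from basal keratinocytes with keratins Krt5 and Krt14, which switch to Krt1 and Krt10 as they leave the basement membrane. Wounded or inflamed epidermis adds Krt6a, Krt6b, Krt16 and Krt17, loosens its matrix contacts and releases signals such as the cytokine TSLP.

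Libraries differed in depth and in mitochondrial reads. They held between 5682391 and 8913804 reads over genes. The share of mitochondrially encoded genes was 13.8% and 12.9% in the WT libraries, and in Mi2 it was 29.7% for replicate 1 and 15.5% for replicate 2. Of the 34 such genes tested, 9 were called higher and 0 lower. Log2 values correlated across genes (not independent replicates) at 0.978 within the WT pair and at 0.942 within the Mi2 pair. Mi2 replicate 1 stood further from the WT libraries (0.750 and 0.756) than Mi2 replicate 2 did (0.821 and 0.837). Among 5810 genes with a mean of at least 200, the Mi2 libraries were more than 2-fold apart in 367 and the WT libraries in 38.

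**Figure D1:**
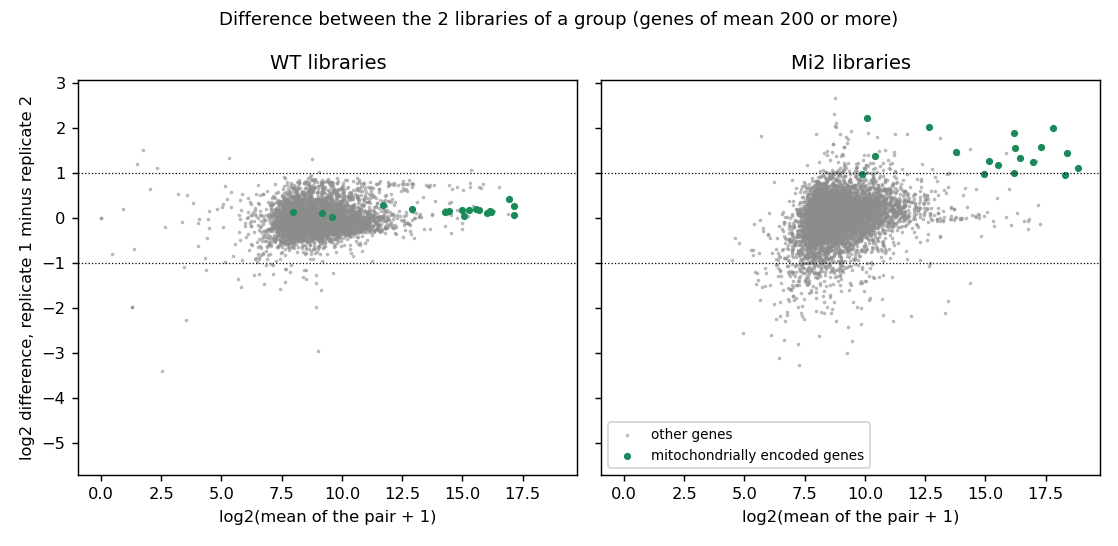
Difference in log2(normalized reads + 1) between replicate 1 and replicate 2 of WT (left) and Mi2 (right) against the level of the pair, 1 point per gene with a mean of at least 200. Dotted lines mark 2-fold, which 38 genes passed in WT and 367 in Mi2, and the mitochondrially encoded genes (green) lay near or above the upper line in the Mi2 pair.

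The labelled cell type was present in all libraries. All 12 keratinocyte markers passed the minimum, and Krt5 held 125451 and 117799.8 normalized reads in WT, against 165634 and 135266 in Mi2. Several defining genes of other cell types were at or near 0. Across the 4 libraries Cd3d did not exceed 0.726 normalized reads, Lum 2.98 and Tyr 0.726, and no endothelial or mast cell marker passed the minimum. Other melanocyte and fibroblast genes were detected. The melanocyte gene Si, now named Pmel, held 115 and 149 in WT and 118 and 105 in Mi2. Mitf held 76.4 and 96.6 in WT and 7.96 and 6.81 in Mi2, and Dct 14.9 and 14.5 against 1.33 and 0. Col6a1 held 99.2 and 141 in WT and 25.2 and 2.72 in Mi2, and Col1a1 72.4 and 12.3 against 18.6 and 4.09. Sox10 went the other way, from 2.98 and 2.18 to 38.5 and 9.54, as did Tyrp1, from 0.992 and 1.45 to 6.63 and 2.72. Erythroid genes had a summed level of 965 and 2865 in WT against 239 and 394 in Mi2, and 5 of 6 were called lower. Leaving out WT replicate 2 left 3 of those calls and leaving out Mi2 replicate 1 left 1. Of 9 Langerhans and dendritic cell markers the 7 tested included 3 called higher (Mfge8, Epcam and Cd74) and 1 called lower (Cd83), with Cd207 between 1.45 and 15.0 and Itgax between 0 and 2.72. Without either WT library 2 were higher and 0 lower. Macrophage lysozyme, Lyz2, had 182 normalized reads in WT replicate 2 and at most 2.72 in the other 3 libraries, and 0 of the 4 tested neutrophil and macrophage markers were called.

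Some genes shared with other cell types did rise. Both tested T lymphocyte markers were called higher, Thy1 and Il2rg, and their list summed to 415 and 367 in WT against 2123 and 1369 in Mi2. These genes made up most of the sum, and no other member in the table reached the minimum. Cd3e had 11.9 and 5.08 in WT against 0 and 2.72 in Mi2, and Ptprc 4.96 and 4.36 against 5.31 and 1.36. Lck had 0.992 and 0.726 in WT against 10.6 and 4.09 in Mi2. Of 6 tested fibroblast markers Sparc and Thy1 were higher and Col6a1 lower, with a median log2 change of -1.63, while Dcn did not exceed 5.95. The summed level went from 1138 and 728 to 4678 and 2534, mostly through Sparc (595 and 400 to 2944 and 1711) and Thy1. Thy1 is also part of the T lymphocyte sum, and Col1a1, Col1a2 and Col3a1 were not called. Sebocyte markers had 1 of 5 higher, Fabp5, melanocyte markers 1 of 3 lower, Mitf, and muscle markers 2 of 3 higher, Mylpf and Tnni2, both of which reached the minimum only through Mi2. The call of Mylpf ended without WT replicate 1 (adjusted p = 0.0876) or WT replicate 2 (adjusted p = 0.0781), and that of Col6a1 ended when either WT library was left out and without the trend (adjusted p = 0.0553). The Langerhans and dendritic cell sum was 720 and 759 in WT against 2392 and 2591 in Mi2, where most of it lay in Epcam, Mfge8 and Cd74. The part of other cell types in the results below was not tested.

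Chd4 fell in both Mi2 libraries, to 734 and 1207 normalized reads, against 1607 and 1942 in the WT pair (mean 1774 ± 237 against 970.3 ± 335, SD, n = 2 each). The groups did not overlap, and the log2 change was -0.91 (SE 0.272, limma adjusted p = 0.0456). The table counts a whole gene, so reads from exons outside a deleted part are included. This call ended when WT replicate 1 (-1.04), WT replicate 2 (-0.77) or Mi2 replicate 1 (-0.55) was left out. Fewer cells with the transcript and less of it per cell cannot be told apart in such bulk samples, here or in the results that follow.

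At an adjusted p under 0.05, 2185 genes rose and 1900 fell, which is 15.1% and 13.1% of the 14461 tested, or 28.2% in either direction. Groups without overlap were more common, at 70.7% of tested genes, made up of 34.9% with Mi2 above and 35.8% with Mi2 below. They included every called gene, so separated groups add no support to a call. Among the rises, 473 were under 2-fold, 938 between 2-fold and 4-fold, 522 between 4-fold and 16-fold and 252 beyond that on the log2(value + 1) scale. The falls held 364, 936, 516 and 84 in the same classes. Rises were more frequent than falls among genes with a mean of at least 1000 (21.9% against 10.5%), and nearly equal from 10 to 50 (13.3% against 12.4%). Of the called genes, 78 that rose had 0 reads in both WT libraries and 11 that fell had 0 reads in both Mi2 libraries. Scaling the libraries without mitochondrial genes moved the split to 1525 higher and 2742 lower, and lowered the median change of all genes from -0.03 to -0.27. Changes below are on the authors' scaling. Shares of a list given in brackets stand beside the 15.1% higher and 13.1% lower of all tested genes. Counts of members under the scaling without mitochondrial genes are given for the lists where they changed by 2 or more. A gene with almost no signal in 1 group could reach the minimum only through the other, so such a member had to differ, and its call is no support for a list. Their numbers are given beside the lists that hold many of them. Named members of this kind include Nid1, F3, Dlg4, Elf3 and Spred3 through Mi2, and Egfl6, Bhlhe41, Skint5 and Gabrp through WT.

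**Figure D2:**
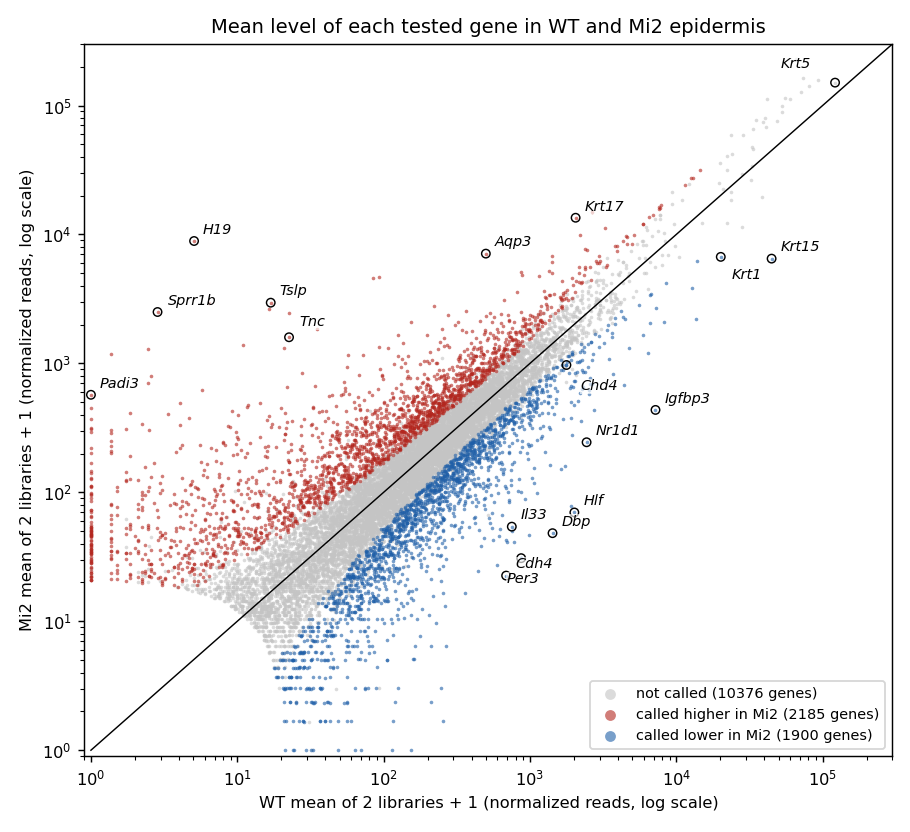
Mean of the 2 Mi2 libraries against the mean of the 2 WT libraries for each of the 14461 tested genes, in normalized reads + 1 on log axes, with genes called higher (2185) in red, lower (1900) in blue and the diagonal marking equality. Named genes are circled: Padi3, H19 and Sprr1b lie far above the diagonal at almost no WT signal, while Krt15, Igfbp3 and the clock genes Hlf, Dbp and Per3 lie far below it.

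Calls were made on these same libraries, so the share of reads in called genes had to move with the calls. Only its size is described here, and the same holds for the 10 largest losses. Genes called lower took 12.9% and 13.7% of normalized reads in WT, against 2.91% and 4.92% in Mi2. Non-mitochondrial genes called higher went from 9.15% and 9.13% to 16.6% and 17.7%. Among called genes, the 10 largest losses in reads, counted per gene and not per length, were Krt15, Krt1, Ahnak2, Krt77, Anxa8, Igfbp3, Ccnd2, Dsg1a, Net1 and Gata3, and together they fell from 2.10% in each WT library to 0.244% and 0.555%. Igfbp3, which binds insulin-like growth factors, held 6510.0 and 7906 normalized reads in WT, against 249 and 619.8 in Mi2. Ccnd2, the cell cycle regulator cyclin D2, held 8234 and 8138 in WT against 1482 and 2708 in Mi2. The log2 changes of Igfbp3 and Ccnd2 were -4.19 (SE 0.4, adjusted p = 0.00129) and -2.03 (SE 0.308, adjusted p = 0.00554). Without WT replicate 1 the call of Anxa8 ended (log2 change -1.10), as did those of Krt1 (-1.57) and Krt77 (-2.24), and the last also ended without WT replicate 2 (-2.01) and in 5 other settings. The uncalled Col17a1 and Krt10 lost more reads than all of these but Krt15. Of the 10 largest gains among called genes, 7 were AC129179.1, AC137844.1 and 5 rows named for mir-2134 or mir-2135. Whether these rows share sequence was not tested, and their reads may be shared or split by the counting. The calls of all 7 ended with no filter, without the trend, with mitochondrial genes out of the scaling, and without WT replicate 2, Mi2 replicate 1 or Mi2 replicate 2. Krt6a, Krt17 and H19 made up the other 3, and the uncalled Krt14 and Krt5 gained more reads than any of the 10.

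At a mean of 200 or more, the 12 steepest rises among called genes were H19, Sprr1b, Pi15, Stfa1, Padi3, BC100530, Sprr2h, Gpr128, Gm15845, Podxl, Tslp and Lgals1. BC100530 rose from 4.96 and 5.81 to 4024 and 1881 normalized reads. Podxl, a sialomucin of the cell surface, had 2 reads in WT and 622 and 196 normalized reads in Mi2, a ratio of 491 (95% exact interval 135 to 4067). Lgals1, a secreted lectin that binds galactosides, went from 0 and 9.44 to 963 and 285. The 12 steepest falls were Per3, Cdh4, Hlf, Dbp, Ccrl1, Fbxo32, Ablim3, Foxq1, Igfbp3, Rab11fip4, Dapl1 and Cpxm2. Cdh4, the cell adhesion molecule R-cadherin, dropped from 709.5 and 663 to 14.6 and 28.6 (log2 change of -5.00 with SE 0.339, adjusted p = 6.5e-04). Ccrl1, now named Ackr4 and a scavenging receptor for chemokines, dropped from 2073 and 1724 to 50.4 and 105. Fbxo32, a muscle-wasting ubiquitin ligase subunit, dropped from 1016 and 950.3 to 25.2 and 66.8, and the transcription factor Foxq1 from 841 and 722 to 29.2 and 51.8. These 12 were picked among genes whose groups did not overlap, so their separation is no result. In each of them Mi2 replicate 1 was the lower of the Mi2 pair.

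Many genes of the circadian clock and its outputs fell. Of 25 tested members, 13 were called lower and 0 higher, with a median log2 change of -1.37 beside -0.03 over all genes. The lower share was 52.0%, beside 13.1% of all tested genes. At an unadjusted p under 0.05 limma gave 15 lower and 4 higher, and edgeR and DESeq2 each called 13 lower and 1 higher after adjustment. In this loop CLOCK and BMAL1 (Arntl) bind E-box sequences and switch on the Per and Cry inhibitors, the Nr1d nuclear receptors and the output factors Dbp, Tef and Hlf. The promoters of Tef and Bhlhe41 are printed because these called members held the E-box CACGTG, shown in capitals, within the 250 bases before the RefSeq start (GRCm38.p6, 5′ to 3′), which begins 127 and 153 bases before that start.

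Tef (chr15:81802423-81802672, plus strand): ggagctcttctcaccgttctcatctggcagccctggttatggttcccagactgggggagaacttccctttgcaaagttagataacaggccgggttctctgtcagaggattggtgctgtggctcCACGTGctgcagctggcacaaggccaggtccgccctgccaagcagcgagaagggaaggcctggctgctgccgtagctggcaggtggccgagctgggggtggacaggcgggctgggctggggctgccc
Bhlhe41 (chr6:145865421-145865670, minus strand): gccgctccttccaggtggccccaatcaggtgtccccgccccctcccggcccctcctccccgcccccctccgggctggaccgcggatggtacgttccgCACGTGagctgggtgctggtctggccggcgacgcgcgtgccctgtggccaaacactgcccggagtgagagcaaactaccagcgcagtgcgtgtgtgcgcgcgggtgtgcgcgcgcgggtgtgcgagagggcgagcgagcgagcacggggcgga

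The E-box was in 2 of 10 windows of clock genes called lower that matched the RefSeq table, and in 10.4% of the windows of all tested protein-coding genes. A match is only a stretch of letters, and both genes were picked after their values were known. Tef fell from 3005 and 2472 normalized reads to 358 and 515 (log2 change of -2.66 with SE 0.239, adjusted p = 0.00107). Bhlhe41, a repressor of the loop, fell from 156 and 70.4 to 9.29 and 8.17 (log2 change -3.45), a call that ended without WT replicate 1 (-2.88, adjusted p = 0.0526).

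Output factors lost most of their signal. Hlf held 2124 and 1897 normalized reads in WT, against 50.4 and 87.2 in Mi2 (log2 change of -4.90 with SE 0.282, adjusted p = 4.1e-04). Dbp held 1825 and 1026 in WT against 34.5 and 59.9 in Mi2 (log2 change of -4.88 with SE 0.361, adjusted p = 7.9e-04). As for every called gene, the groups did not overlap for Hlf or Dbp, which adds no support. Among the inhibitors, Per3 fell from 964 and 776 to 7.96 and 51.8, and Cry2 from 659.9 and 645 to 149 and 138. The nuclear receptors moved the same way, with Nr1d1 at 2889 and 1985 in WT against 280.0 and 207 in Mi2 (log2 change of -3.31 with SE 0.257, adjusted p = 8.4e-04) and Rora at 1393 and 1290.0 against 304 and 341.

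The activators did not share this pattern. Clock had 425 and 458 normalized reads in WT, against 610.3 and 567 in Mi2 (log2 change 0.41, adjusted p = 0.135). Arntl had 45.6 and 107 in WT against 212 and 135 in Mi2 (log2 change 1.26, adjusted p = 0.0679), and was called higher without WT replicate 2 (1.87, adjusted p = 0.0361). With WT replicate 1, WT replicate 2, Mi2 replicate 1 and Mi2 replicate 2 left out in turn, 9, 11, 12 and 14 clock genes were lower and 0, 2, 1 and 0 higher. With mitochondrial genes out of the scaling 15 were lower. Since no hour of collection is given, group and hour cannot be told apart.

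**Figure D3:**
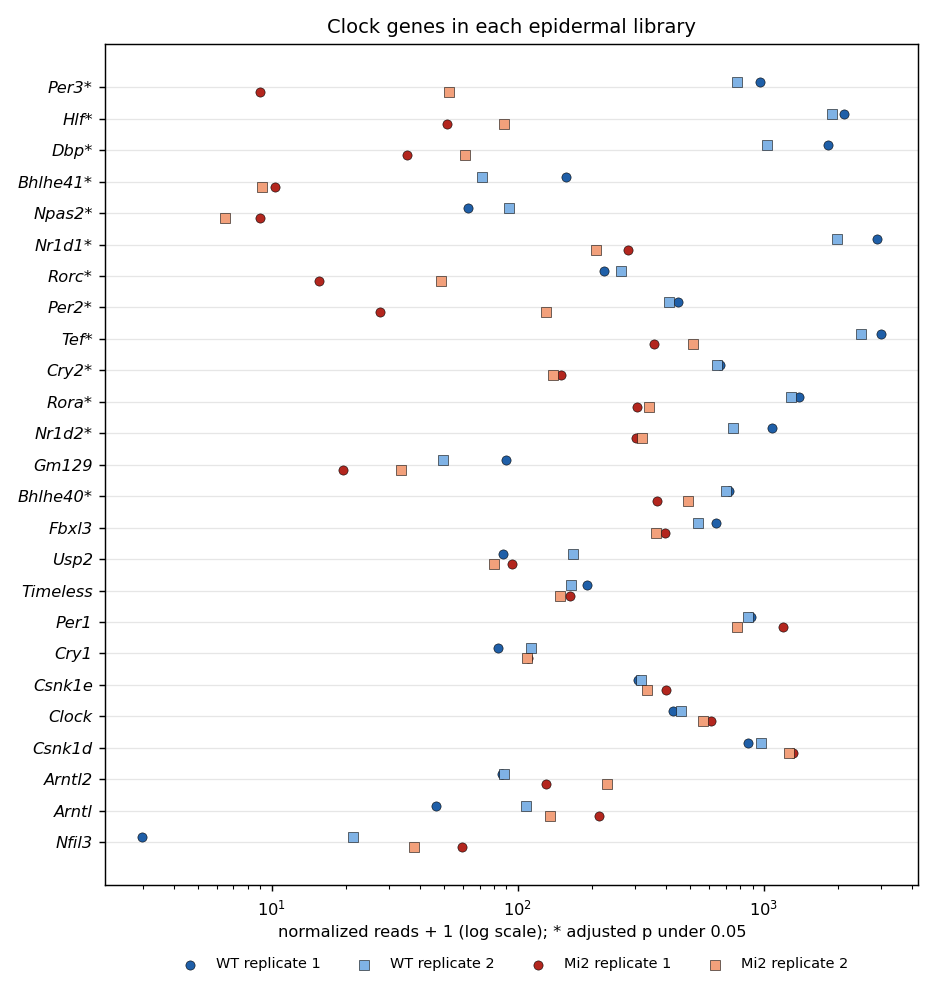
Normalized reads + 1 (log axis) of all 25 tested clock genes in each library, ordered by log2 change, with WT in blue and Mi2 in red and circles and squares for replicates 1 and 2. The 13 genes with a star were called lower, and for Hlf, Dbp, Nr1d1 and Tef the Mi2 points lie far to the left of the WT points, while Clock and Arntl lie to the right.

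Keratins went both ways, with 9 of 23 tested higher (39.1%) and 7 lower (30.4%). The counts were 8 and 8 with mitochondrial genes out of the scaling. Of 48 listed keratins, 7 reached the minimum only through Mi2, and 5 of them are among the 9. Krt15, which marks stem cells of the hair follicle and some basal cells, fell from 49093 and 40508 normalized reads to 4202 and 8781 (log2 change of -2.88 with SE 0.403, adjusted p = 0.00434). The differentiation keratin Krt1 fell from 21522 and 18749 to 4503 and 8896. Krt10, its partner, had 28432 and 28167 in WT against 4945 and 17707 in Mi2 and was not called (log2 change -1.60, adjusted p = 0.0717). Krt10 was called lower without Mi2 replicate 2 (-2.52) and with mitochondrial genes out of the scaling (-1.83). The fall was thus larger in Mi2 replicate 1 for both members of this pair.

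Basal keratins Krt5 and Krt14 were not called. Krt14 had 35019.9 and 32291 normalized reads in WT, against 79944 and 50895 in Mi2 (log2 change 0.92, adjusted p = 0.136). With DESeq2 Krt14 was called higher (0.97, adjusted p = 0.00417). Keratins of wounded epidermis rose, including Krt16 from 2487 and 2402 to 9205 and 6059 and Krt6b from 1368 and 1319.8 to 7289 and 3159. Krt8 and Krt18, keratins of simple epithelia and Merkel cells, had 0 reads in WT and were at least 64.7-fold and 85.2-fold higher in Mi2. Most of that signal was in Mi2 replicate 1, at 308 and 389 normalized reads against 25.9 and 50.4 in replicate 2, where alone they were at least 10.04-fold and 19.6-fold higher. The Merkel cell genes Atoh1, Isl1 and Sox2 were at 0 in all 4 libraries. Without Mi2 replicate 1, Krt8 lay below the minimum mean and was not tested. With the libraries left out in the order used above, 6, 7, 9 and 8 keratins were higher and 4, 5, 7 and 9 lower.

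**Figure D4:**
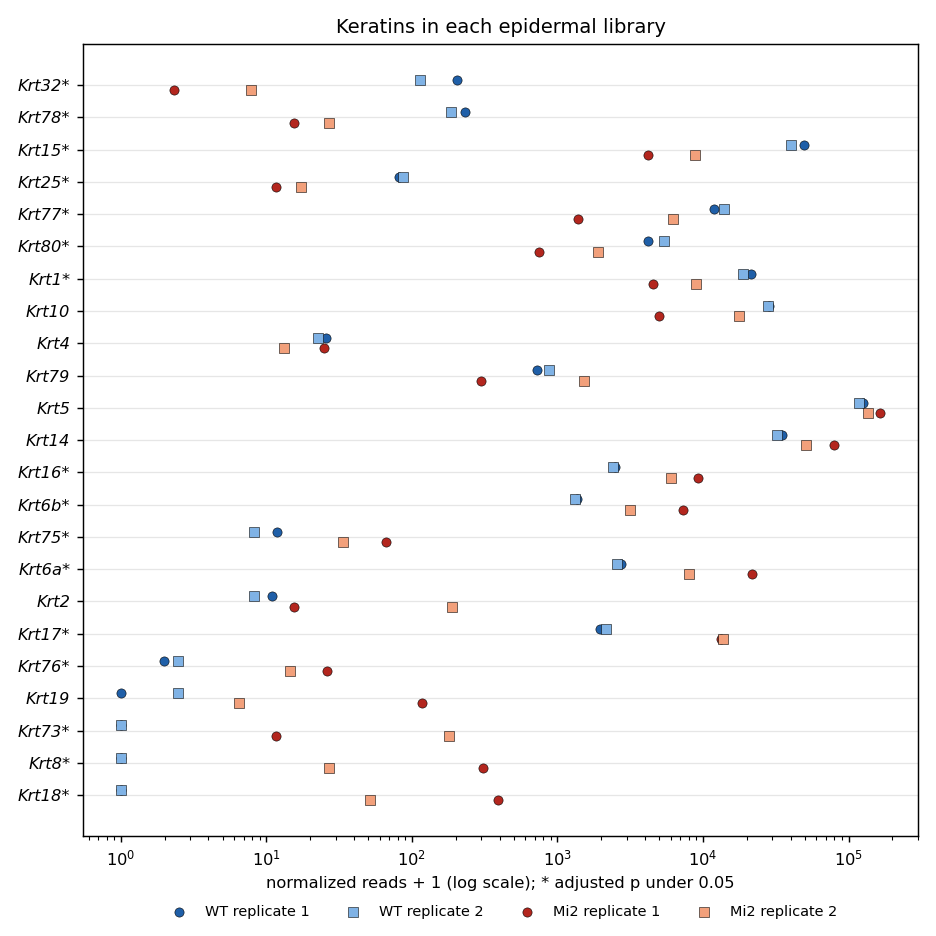
Normalized reads + 1 (log axis) of all 23 tested keratins in each library, ordered by log2 change, with WT in blue and Mi2 in red and circles and squares for replicates 1 and 2; genes with a star were called. Krt15, Krt1 and Krt78 shift left in Mi2, Krt17, Krt16 and Krt6a shift right, and Krt8 and Krt18 appear at 0 in both WT libraries.

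Of 24 tested genes of the wound edge, 13 rose (54.2%) and 1 fell (4.17%). The counts were 11 and 1 with mitochondrial genes out of the scaling. The list has 36 genes, and 6 reached the minimum only through Mi2, 3 of them among the 13. The list holds matrix proteins, matrix-cutting proteases and growth factors that migrating keratinocytes use. Tnc, the matrix glycoprotein tenascin C, rose from 22.8 and 20.3 normalized reads to 2206 and 981 (log2 change of 6.03 with SE 0.378, adjusted p = 4.8e-04). The hyaluronan receptor Cd44 rose from 1267 and 1557 to 8277 and 5434. Adamts1, a secreted protease, rose from 163 and 128 to 1377 and 917, and Tgfa, a ligand of the EGF receptor, from 44.7 and 63.2 to 525 and 332. In these 4 genes Mi2 replicate 1 was the higher of the Mi2 pair. Il24, an epithelial cytokine, had 0 reads in WT and 179 and 12.3 normalized reads in Mi2, at least 37.1-fold higher (at least 4.76-fold without Mi2 replicate 1). The matrix protein Fn1 had 117 and 910.3 in WT against 34.5 and 98.1 in Mi2 and was not called. Fn1 was called lower with edgeR (-2.96, adjusted p = 0.0479) and with the replicate block (-2.47, adjusted p = 5.0e-04). Its log2 change was -3.94 without WT replicate 1. Higher members numbered 9, 11, 9 and 14 with the libraries left out in turn.

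Targets and feedback genes of the ERK kinase pathway had 12 of 26 higher and 2 lower. That is 46.2% and 7.69%, beside 15.1% and 13.1% of all tested genes. Of these 26, 4 reached the minimum only through Mi2, 3 of them among the 12. Etv4, a transcription factor induced by growth factor signals, rose from 58.6 and 51.5 to 1146 and 739.7 (log2 change of 4.04 with SE 0.267, adjusted p = 5.9e-04). Spred3, an inhibitor of the pathway, rose from 1.98 and 4.36 to 142 and 113, and the ERK phosphatase Dusp6 from 105 and 155 to 504 and 1364. Dusp6 was higher in Mi2 replicate 2 than in replicate 1, unlike Tnc and Cd44. Fosl1, an AP-1 subunit, rose from 7.94 and 44.3 to 346 and 208, and its call ended without Mi2 replicate 1 (3.38, adjusted p = 0.0574). The counts were 7, 10, 10 and 12 higher and 1, 0, 3 and 5 lower with the libraries left out in turn. Egfr itself had 1292 and 1606 normalized reads in WT, against 1692 and 1797 in Mi2 (log2 change 0.28, adjusted p = 0.335).

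Promoters of Sprr1b and Sprr2h, cornified envelope precursors among the 12 steepest rises, are printed below (GRCm38.p6, 5′ to 3′). They were picked because both matched the AP-1 pattern TGANTCA, in capitals, within 250 bases of the RefSeq start. N stands for any base, and the match reads TGAATCA in Sprr1b and TGAGTCA in Sprr2h. It begins 111 and 198 bases before the start.

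Sprr1b (chr3:92438780-92439029, minus strand): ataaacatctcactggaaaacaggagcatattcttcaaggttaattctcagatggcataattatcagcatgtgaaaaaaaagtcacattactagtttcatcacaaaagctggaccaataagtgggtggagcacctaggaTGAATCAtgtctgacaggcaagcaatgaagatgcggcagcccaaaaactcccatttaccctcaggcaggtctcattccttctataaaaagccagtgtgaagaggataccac
Sprr2h (chr3:92385435-92385684, plus strand): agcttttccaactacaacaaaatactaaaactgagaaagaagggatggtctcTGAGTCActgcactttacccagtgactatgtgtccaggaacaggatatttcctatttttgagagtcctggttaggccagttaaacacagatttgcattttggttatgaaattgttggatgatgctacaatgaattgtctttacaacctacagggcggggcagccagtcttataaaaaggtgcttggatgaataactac

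Over the 300-base RefSeq windows of tested protein-coding genes (250 bases before and 50 after the first listed start), 9443 of 11380 genes matched. Both strands were searched, except for the TATA box, and no sequence searched contains another. AP-1 was in 6.22% of windows of genes called higher, 6.45% of those called lower and 4.35% of those not called. The TATA box TATAAA was in 7.74%, 4.49% and 3.84% of the same sets. An observed to expected CpG ratio under 0.4, which marks promoters poor in CpG, was found in 18.6%, 19.9% and 11%. The share was thus higher in both called sets than in the uncalled one, as a description with no test. Over all matched genes AP-1 was in 4.96% and TATAAA in 4.53%. With a fitted change over 16-fold, AP-1 was in 11.6% of windows of genes called higher and 10.9% of those called lower.

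**Figure D5:**
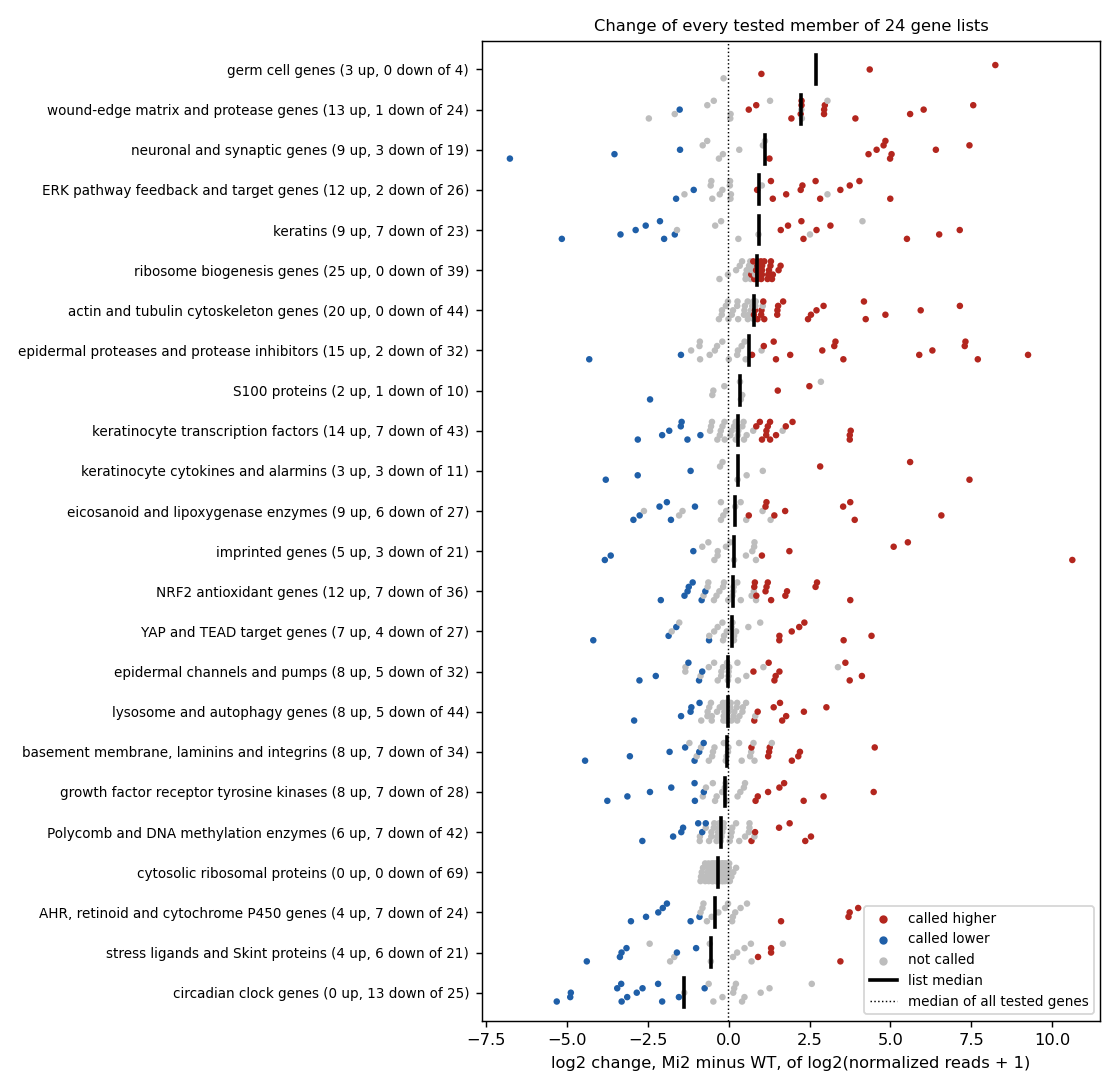
Log2 change (Mi2 minus WT) of every tested member of 24 gene lists, 1 point per gene, coloured red or blue where called higher or lower, with a black bar at each list's median and a dotted line at the median of all tested genes (-0.03). Clock genes have the lowest median, ribosome biogenesis and cytoskeleton genes hold red points and no blue ones, and cytosolic ribosomal proteins have no called member.

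Of 39 ribosome biogenesis genes, all of which were tested, 25 rose (64.1%) and 0 fell, with a median log2 change of 0.89. At an unadjusted p under 0.05 limma gave 34 higher and 0 lower, and after adjustment edgeR called 26 and DESeq2 22 higher with 0 lower. These genes transcribe, cut and fold ribosomal RNA in the nucleolus. The summed level of the list was 14532 and 14364 normalized reads in WT, against 32114 and 23705 in Mi2. Polr1a, the largest subunit of RNA polymerase I, rose from 195 and 217 to 661 and 546 (log2 change of 1.54 with SE 0.206, adjusted p = 0.00379). The nucleolar helicase Ddx21 rose from 553 and 645 to 2218 and 1490.3, and Myc, which drives this programme in many cells, from 725 and 786 to 2191 and 1597. The count of genes higher was 2, 6, 14 and 30 with the libraries left out in turn, 12 with mitochondrial genes out of the scaling and 11 without the intensity trend. The calls of Mybbp1a (1.20, adjusted p = 0.0621) and Myc (1.25, adjusted p = 0.0551) ended without WT replicate 1. The median relative to all genes stayed between 0.71 and 1.11 in those settings.

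Genes for the proteins of the cytosolic ribosome itself passed the threshold in neither direction. None of 69 tested was called in either direction, with a median of -0.33. At an unadjusted p under 0.05, limma gave 14 lower and 0 higher, and after adjustment edgeR called 1 lower and DESeq2 3. Rplp0 had 12200.3 and 8719 normalized reads in WT, against 6861 and 6595 in Mi2. WT replicate 1 held the largest summed level, 127948 against 90671 in WT replicate 2 and 90076 and 81640 in Mi2. With mitochondrial genes out of the scaling 17 of these genes were called lower, without WT replicate 2 it was 3, and with the replicate block it was 7.

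Of 44 tested cytoskeleton genes, 20 rose (45.5%), 0 fell and 24 were not called, with a median of 0.80. Limma gave 27 higher and 0 lower at an unadjusted p under 0.05, and edgeR and DESeq2 called 21 and 25 higher with 0 lower after adjustment. Tubb6, a beta tubulin, rose from 11.9 and 27.6 to 1924 and 719 (log2 change of 5.94 with SE 0.532, adjusted p = 0.00107). Acta2, the smooth muscle actin, rose from 36.7 and 29.0 to 862 and 466, and Cnn3, the actin-binding calponin 3, from 14.9 and 11.6 to 349 and 188. Msn, which ties actin to the membrane, rose from 785 and 987 to 5269 and 4425. The filamin gene Flnc had 0 reads in WT and 345 and 57.2 normalized reads in Mi2, at least 78.0-fold higher (at least 22.2-fold without Mi2 replicate 1). The common actin Actb was not called, at 10010.1 and 11766 against 22801 and 14195 (log2 change 0.73, adjusted p = 0.135). Its call came up without Mi2 replicate 2 (1.07, adjusted p = 0.0432) and with DESeq2 (0.77, adjusted p = 0.0343). The number higher was 9, 13, 13 and 30 with the libraries left out in turn, 13 without the intensity trend and 15 with mitochondrial genes out of the scaling.

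Epidermal proteases and their inhibitors had 15 of 32 tested higher (46.9%) and 2 lower (6.25%). The counts were 13 and 2 with mitochondrial genes out of the scaling. Of 45 listed, 7 reached the minimum only through Mi2, 6 of them among the 15. Stfa3, a cysteine protease inhibitor of the stefin family, rose from 14.9 and 16 normalized reads to 2789 and 2471 (log2 change of 7.32 with SE 0.212, adjusted p = 2.6e-05). Stefin copies are similar in sequence, so reads may be split or shared between them. The kallikrein Klk13, a serine protease of the upper epidermis, had 1 read in WT and 429.9 and 173 normalized reads in Mi2, a ratio of 723 (95% exact interval 129 to 28621). For Serpinb6c, with 2 WT reads, the ratio was 149.9 (40.9 to 1247). Higher members numbered 10, 11, 11 and 17 and lower members 1, 1, 2 and 7 with the libraries left out in turn.

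Signals that keratinocytes send to immune cells split by gene. Of 11 tested cytokines 3 rose and 3 fell (27.3% each), and 2 of the 3 that rose reached the minimum only through Mi2. Tslp had 15.9 and 16 normalized reads in WT, against 2779.6 and 3132 in Mi2, a log2 change of 7.45 (SE 0.208, adjusted p = 2.6e-05). Its call held in all settings tried. Il34, which maintains Langerhans cells through the receptor that Csf1r encodes, fell from 748 and 659 to 84.9 and 116 (log2 change of -2.81 with SE 0.234, adjusted p = 8.8e-04). Lif, a cytokine of the interleukin 6 family, rose from 8.93 and 10.2 to 77.0 and 70.8. Without either WT library 2 cytokines were lower.

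Surface proteins that T cells of the epidermis read had 4 of 21 higher and 6 lower (median -0.55). The Skint genes encode immunoglobulin-like proteins of keratinocytes. Skint5 had 35.7 and 24 in WT against 3 reads in Mi2, a ratio of WT to Mi2 of 14.3 (95% exact interval 4.71 to 71.3), and its call ended without WT replicate 2 (-3.64, adjusted p = 0.0876). Skint1 had 301 and 272 in WT against 27.9 and 277 in Mi2, so replicate 1 lay far below WT and replicate 2 did not. Skint1 was not called (log2 change -1.68, adjusted p = 0.193) but was without Mi2 replicate 2 (-3.31, adjusted p = 0.00444). The adhesion ligand Icam1 rose from 348 and 434 to 909 and 1029, a call that ended without WT replicate 1 (1.15, adjusted p = 0.0622). Counts were 0, 3, 5 and 5 higher and 0, 2, 5 and 9 lower with the libraries left out in turn. The median turned positive without WT replicate 1 (0.25), without Mi2 replicate 1 (0.44) and at a minimum mean of 50 (0.14).

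Keratinocyte transcription factors had 14 of 43 higher (32.6%) and 7 lower (16.3%), with a median of 0.29. The counts were 12 and 10 with mitochondrial genes out of the scaling. Trp63, the master regulator of stratified epithelia, was not called, at 5833 and 6498 normalized reads in WT, against 8631 and 7907 in Mi2 (log2 change 0.42, adjusted p = 0.207). Those that rose included the differentiation factor Dlx3 from 20.8 and 19.6 to 304 and 264 (log2 change of 3.74 with SE 0.271, adjusted p = 7.5e-04), Ehf from 54.6 and 57.3 to 178 and 279 and Cebpb from 381 and 377 to 1003 and 849. Elf3, an epithelial ETS factor, rose from 1.98 and 2.18 to 65 and 25.9. Gata3 fell, from 6873 and 7604 to 2185 and 3186 (log2 change of -1.45 with SE 0.255, adjusted p = 0.0086). As for every called gene, the Gata3 groups did not overlap. With the libraries left out in turn 5, 7, 13 and 16 were higher and 4, 4, 7 and 9 lower.

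Receptor tyrosine kinases had 8 of 28 higher and 7 lower (median -0.11), or 7 and 10 with mitochondrial genes out of the scaling. Fgfr2, the receptor for keratinocyte growth factor, fell from 3567 and 3369 to 720.5 and 1424 (log2 change of -1.77 with SE 0.320, adjusted p = 0.00945). Axl, a receptor for the ligand GAS6, rose from 1093 and 1389 to 3732 and 3581, and Ddr2, a collagen receptor, from 65.5 and 44.3 to 203 and 366. Ntrk2 was among the 5 genes most apart between the Mi2 libraries at a mean of at least 200, with 692 and 746 in WT against 17.2 and 155 in Mi2 (log2 change -3.75, adjusted p = 0.019), and its call ended without WT replicate 1 (-3.81, adjusted p = 0.0532), without the trend (adjusted p = 0.0594) and with DESeq2 (-3.05, adjusted p = 0.0647). The counts were 2, 5, 6 and 8 higher and 1, 3, 6 and 9 lower with the libraries left out in turn.

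Basement membrane genes had 8 of 34 higher (23.5%) and 7 lower (20.6%), with a median of -0.04. Nid1, a linker between laminin and collagen, rose from 7.94 and 4.36 to 252 and 98.1 (log2 change of 4.52 with SE 0.540, adjusted p = 0.0027). Egfl6, a matrix protein of hair follicle epithelium, fell from 94.3 and 115 to 2.65 and 5.45 (log2 change of -4.44 with SE 0.466, adjusted p = 0.00168). Nid1 reached the minimum only through Mi2 and Egfl6 only through WT, so both had to differ and their calls are no support for the list. Col17a1, a collagen of the hemidesmosome, had 39120.4 and 37475 normalized reads in WT, against 21051 and 17693 in Mi2 without a call (log2 change -0.99, adjusted p = 0.0613). It was called lower with mitochondrial genes out of the scaling (-1.22, adjusted p = 0.0207), without the 50 most abundant genes in the scaling (-1.12, adjusted p = 0.0301), without the trend (adjusted p = 0.044) and with DESeq2 (adjusted p = 2.5e-04). The list's counts were 1, 4, 7 and 12 higher and 2, 2, 7 and 8 lower with the libraries left out in turn, and 12 were lower with mitochondrial genes out of the scaling.

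Transport genes had 8 of 32 higher and 5 lower (median -0.01). Aqp3, the water and glycerol channel of basal keratinocytes, rose from 429 and 568 to 9655 and 4540.4 (log2 change of 3.74 with SE 0.359, adjusted p = 0.00131), while the calcium channel Trpv6 fell from 189 and 169 to 25.2 and 25.9 (log2 change of -2.76 with SE 0.278, adjusted p = 0.00145). The higher count was 3 without WT replicate 1, and the lower count 1 without either WT library, 10 without Mi2 replicate 2 and 8 with mitochondrial genes out of the scaling. Lipid mediator enzymes had 9 of 27 higher (33.3%) and 6 lower (22.2%), and 4 of the 9 reached the minimum only through Mi2. Hpgds, a prostaglandin D synthase, fell from 197 and 196 to 18.6 and 32.7, and the lipoxygenase gene Alox8 had 0 reads in WT and was at least 42.8-fold higher (at least 20.6-fold without Mi2 replicate 2 and 65.01-fold without Mi2 replicate 1). Higher and lower counts there were 3 and 2, 5 and 2, 6 and 6, and 7 and 9 with the libraries left out in turn, and 6 were higher with mitochondrial genes out of the scaling and 5 without the 50 most abundant genes.

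Antioxidant genes under NRF2 had 12 of 36 higher (33.3%) and 7 lower (19.4%), with a median of 0.15. The members did not move as 1 block: Pgd, an enzyme of the pentose phosphate pathway, rose from 208 and 256 to 963 and 679.8, and the glutathione transferase gene Gstm2 fell from 241 and 241 to 41.1 and 74.9. Those pairs were apart by log2 changes of 1.81 (SE 0.241, adjusted p = 0.00375) and -2.10 (SE 0.326, adjusted p = 0.00592). Leaving out WT replicate 1 gave 2 and 1, leaving out WT replicate 2 gave 5 and 1, and both were 9 with mitochondrial genes out of the scaling. Retinoid, xenobiotic and cytochrome P450 genes had 4 of 24 higher (16.7%) and 7 lower (29.2%), with a median of -0.42. The higher share stood near the 15.1% of all tested genes. The lipid carriers Fabp5 and Crabp2, which bring retinoic acid to the nucleus, rose from 68.5 and 73.3 to 1255 and 1058 and from 34.7 and 29.0 to 609 and 298. Lower members numbered 3, 3, 5 and 12 with the libraries left out in turn, and 9 with mitochondrial genes out of the scaling. Lysosome and autophagy genes had 8 of 44 higher and 5 lower (median -0.03), which is 29.5% called, close to the 28.2% of all tested genes, with the protease genes Ctsd up from 1751 and 1584 to 4775 and 4005 (log2 change 1.39) and Ctsc by a log2 change of 1.59. The lower count rose to 12 with mitochondrial genes out of the scaling, and leaving out WT replicate 1 gave 3 higher and 1 lower, and WT replicate 2 gave 6 and 1.

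Targets of YAP and TEAD, which respond to tension, had 7 of 27 higher (25.9%) and 4 lower (14.8%), with a median of 0.09. The lower share stood near the 13.1% of all tested genes. F3, the tissue factor that starts coagulation, rose from 3.97 and 6.53 to 127 and 132, and reached the minimum only through Mi2. Arhgef17, which activates RhoA, rose from 53.6 and 53.7 to 662 and 621. Without either WT library 2 were lower. S100 genes had 2 of 10 higher and 1 lower (median 0.36), which is 30.0% called, close to the 28.2% of all tested genes. Among them S100a6, a calcium-binding protein of dividing cells, rose from 949 and 786 to 6589 and 3611. The higher count was 1 without either WT library and 5 without Mi2 replicate 2, and the lower count 0 without WT replicate 1 and 2 without Mi2 replicate 2.

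Chromatin enzymes of the Polycomb and DNA methylation systems had 6 of 42 higher and 7 lower (median -0.23), which is 14.3% and 16.7% beside 15.1% and 13.1% of all tested genes, so the list stood near the background. Cbx6, a reader of methylated histone H3, rose from 132 and 154 to 625 and 1119.8 (log2 change of 2.54 with SE 0.298, adjusted p = 0.00255). Bmi1, a Polycomb subunit, fell from 179 and 196 to 71.6 and 68.1, a call that ended when WT replicate 1 (-1.48) or WT replicate 2 (-1.34) was left out. Counts were 2, 3, 6 and 9 higher and 0, 0, 4 and 14 lower with the libraries left out in turn, and 3 and 9 with mitochondrial genes out of the scaling.

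Lists of genes best known from other lineages held members with almost no WT signal. Of 47 neuronal and synaptic genes 19 were tested. Of those, 8 reached the minimum only through Mi2 and 2 only through WT, and all 10 were called, so the list's 9 rises and 3 falls carry no weight as a count. Grin1, a glutamate receptor subunit, had 0 reads in WT and 95.5 and 73.6 normalized reads in Mi2, at least 32.8-fold higher. Dlg4, a scaffold of synapses, rose from 3.97 and 3.63 to 86.2 and 105 (log2 change of 4.32 with SE 0.420, adjusted p = 0.00136). Gabrp, a subunit of the GABA receptor family, went the other way, from 235 and 253 to 0 and 4.09, with 3 reads in Mi2 and a ratio of WT to Mi2 of 122 (95% exact interval 41.5 to 593). Of 35 germ cell genes only 4 were tested, and 2 of them reached the minimum only through Mi2, so no count is read from them. Piwil2, which binds small RNAs in the germ line, rose from 1.98 and 4.36 to 107 and 61.3. Imprinted genes had 5 of 21 higher (23.8%) and 3 lower (14.3%), and 3 of the 5 reached the minimum only through Mi2. Ascl2, a stem cell transcription factor, fell from 245 and 190.2 to 10.6 and 19.1 (log2 change of -3.83 with SE 0.372, adjusted p = 0.00136), while Phlda2 had 0 reads in WT and 79.6 and 25.9 normalized reads in Mi2, at least 20.5-fold higher (at least 10.04-fold without Mi2 replicate 1). The germ cell list's call of Mov10 (1.01, adjusted p = 0.041), ended without each library in turn and in 5 other settings, and 1 imprinted gene was lower without either WT library.

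Among genes with a mean of at least 200, the Mi2 libraries were furthest apart on Ntrk2, Clec2d, Skint1, Alox12e and Postn. Alox12e, an epidermal lipoxygenase gene, had 395 and 757 in WT against 29.2 and 1188 in Mi2, and Postn, a matrix protein, had 489 and 847 in WT against 138 and 1098 in Mi2. For both genes the WT values lay between the Mi2 values, and neither was called (adjusted p = 0.451 and 0.541). Of the 367 genes more than 2-fold apart in the Mi2 pair, 124 were higher in Mi2 replicate 1.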

How the data were processed

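Sorted epidermal keratinocytes of 2 WT and 2 Mi2 libraries were analysed. The deposited values are a normalized read signal that the authors made from whole reads and 1 factor per library: dividing by that factor gave whole reads to within 0.05 for all values. The submitters' processing notes list bcl2fastq 1.8.3, STAR, DESeq2, mm9 and mm10 with no role for each build. The labels name 2 library kits without assigning them to samples. Counting program, strand setting and annotation, not given in the sources used here, leave reads of overlapping or antisense genes impossible to tell apart.

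Rows with a mean of at least 10 were tested with limma 3.58.1 and an intensity trend (R 4.3.3) on log2(value + 1), two-sided, with a Benjamini-Hochberg adjusted p under 0.05 as the threshold. This understates changes of low genes. The fit was tested on simulated data. Alternatives used other filters and pseudocounts, no trend, edgeR 4.0.16 and DESeq2 1.42.0 on recovered reads, other scalings, a replicate block and libraries left out. With a library left out the minimum mean was applied again, so the members tested could differ. Against 0 reads, a fold was set against 3 reads in each library; with 1 to 3 reads a ratio has a 95% exact interval covering counting error only, with no molecular identifiers described.

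The comparison, members, lists and tests were chosen with earlier results of these data known. Named genes were Chd4, Tslp, up to 4 called members of each list with the smallest p (the 2 most abundant where fewer than 2 were called), the 12 largest rises and falls at a mean of at least 200, the 10 largest gains and losses in reads (both among called genes), and the 5 genes of a mean of at least 200 most apart within each pair. The 12 largest rises and falls were also required to have groups that did not overlap. A further 21 genes were chosen after their values were seen, such as Tef, Bhlhe41, Clock, Krt10, Cd44 and Actb. Of 36442 identifiers, 31819 had a current symbol. Promoter windows are RefSeq's on GRCm38.p6 and were matched by symbol or synonym. They cover protein-coding genes outside chromosome 18, a restriction chosen after the matches were seen.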

Additional observations from a re-analysis of the deposited data

How the results depend on the processing

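No gene called in the reported test changed sign in any of the 14 alternatives, but most of these could not have shown such a change. The groups of every called gene did not overlap, so leaving out 1 library could not reverse a sign. Other filters, no trend and the replicate block left the fitted change itself as it was. With 1 library left out, the genes called higher numbered between 771 and 2716 and those called lower between 342 and 3099. The lowest counts came without WT replicate 1 and the highest without Mi2 replicate 2; the lone library of a group is then assumed to vary like the other pair. Without WT replicate 1 the counts were 771 and 342, without WT replicate 2 they were 1012 and 429, without Mi2 replicate 1 they were 1671 and 1744, and without Mi2 replicate 2 they were 2716 and 3099. Scaling without the 50 most abundant genes gave 1734 and 2102, with a median over all genes of -0.16. The call of Chd4 ended with no filter (-0.91, adjusted p = 0.0754), without the trend (-0.91, adjusted p = 0.108), with edgeR (-0.87, adjusted p = 0.0547) and in 3 of 4 fits with a library left out, whose log2 changes ranged from -1.27 to -0.55. Among the genes named, the uncalled ones that changed direction were Postn, which ranged from -2.21 to 0.77 with 1 library left out, and Alox12e, which ranged from -4.18 to 1.12 and was 0.088 with edgeR and 0.084 with DESeq2. The cause of these shifts was not tested.

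Fitting replicate number as a replicate block gave 2612 genes higher and 2558 lower. The replicates of the groups share only a number: across 14461 genes the deviations of replicate 1 from its group mean correlated at 0.12 between WT and Mi2, with 2 pairs. Depth limits low genes most: 1 read was worth between 0.726 and 1.36 normalized reads.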

Other observations

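Rows that RefSeq classes as pseudogenes were seldom called lower. Of 1558 tested, 195 were higher (12.5%) and 33 lower (2.12%), beside 1855 (15.9%) and 1762 (15.1%) of 11662 protein-coding genes. The higher share was thus below that of protein-coding genes. Long noncoding RNAs were seldom called higher, with 20 of 321 higher (6.23%) and 50 lower (15.6%). Reads shared between a pseudogene and its parent gene cannot be told apart here.

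Among genes with a mean of at least 200, the WT libraries were furthest apart on Lgals1, Fn1, Gm11597, Hba-a2 and Stfa1. Fn1 had 117 and 910.3 normalized reads in WT replicates 1 and 2, and Hba-a2 had 195 and 768. Lgals1, Gm11597 and Stfa1 each had 18.1 normalized reads or fewer in WT.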
